A study of Mus musculus with 8 samples.

Results

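In whole mouse eyes, 150 transcripts stood higher in the WT ZT9 library than in every other library of the series. Most are long, AT-rich mRNAs, and they encode chromatin regulators, zinc finger factors, kinases, ubiquitin ligases, ion channels and giant structural proteins. They were chosen by their CPM, the count over the column total, times 1000000: of 32517 gene symbols, 10277 had a mean of at least 10 CPM over the 8 libraries, and these were ranked by the log2 ratio of WT ZT9 to the highest of the other 7 libraries, with 0.5 CPM added to both. The top 150 were taken, leaving out Clock and symbols that begin with Gm and a digit or end in Rik, which removed 6 genes ranked above the last member. The height of the members in WT ZT9 over the other libraries is therefore what selected them, and it is described here with no test. The mean of at least 10 CPM includes WT ZT9, so some members passed this minimum only through that library. An example is Zfp804b, at 3.74 to 9.83 CPM in the other 7 libraries.

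RNA was sequenced from eyes of male mice, 12 weeks old, under 12 h of light and 12 h of dark, collected every 6 h. WT mice carried no Cre. In cKO mice (Cre-positive) the glucocorticoid receptor gene Nr3c1 was deleted in the retina only; the promoter that drives Cre is not given in the sources used here, and the other tissues of the eye keep the gene. Each library is 1 pool of equal RNA amounts from 3 mice, and there is 1 library for each genotype at each of 4 zeitgeber times (ZT, counted in hours since the light went on): ZT3, ZT9, ZT15 and ZT21. No library, WT ZT9 included, was repeated.

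The eye holds its own circadian clocks, and in the retina many transcripts follow the light cycle. The glucocorticoid receptor is a nuclear receptor that binds DNA on hormone binding, and adrenal glucocorticoid itself follows a daily course. How much of a mature mRNA is present depends on transcription, splicing, export and decay, and long 3′ UTRs, the noncoding ends that follow the stop codon, hold most sites at which small RNAs and RNA-binding proteins act.

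Total counts per library ran from 11748995 in WT ZT9, the smallest, to 20309611 in cKO ZT9, the largest. The members' counts in WT ZT9 ran from 298 to 10632, so that counting error was at most 5.79% there. Nr3c1 stood at 36.3, 31.5, 36.1 and 29.8 CPM in the cKO libraries, in order of time, against 84.0, 156.4, 136.4 and 138.1 CPM in the WT libraries of the same times. The tissue fields give the nonpigmented epithelium of the ciliary body, but by the protocols the samples were whole eyes. The 16 rod markers summed to between 60060 and 72240 CPM and the 19 lens markers to between 103300 and 178500 CPM, so every library held retina and lens beside the ciliary body. WT ZT9 stands apart from the rest: 243 genes were more than 2-fold above the highest other library there, against 0 to 12 genes for each of the other 7 libraries taken in the same way.

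The promoters of the 4 members with the highest ratio for which a RefSeq promoter was at hand and could be shown are printed as examples. The members share a high level in WT ZT9 because they were chosen for it. Each promoter runs from 250 bases before to 50 after the gene's start (GRCm38.p6, minus strand, 5′ to 3′). Scai lies at chr2:39190681-39190980, Tet1 at chr10:62887275-62887574, Zfp804b at chr5:7344329-7344628 and Ago3 at chr4:126429493-126429792. Capitals mark matches to CCAAT (the CCAAT box) in Scai, GGGCGG (the GC box) in Tet1 and Ago3, and AGAACA (a glucocorticoid receptor motif) in Zfp804b, in either orientation.
Scai: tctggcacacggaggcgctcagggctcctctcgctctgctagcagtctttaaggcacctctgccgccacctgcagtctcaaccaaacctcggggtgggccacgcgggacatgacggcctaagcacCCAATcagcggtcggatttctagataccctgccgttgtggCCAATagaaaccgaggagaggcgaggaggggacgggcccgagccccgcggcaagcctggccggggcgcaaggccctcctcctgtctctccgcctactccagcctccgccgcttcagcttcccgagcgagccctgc
Tet1: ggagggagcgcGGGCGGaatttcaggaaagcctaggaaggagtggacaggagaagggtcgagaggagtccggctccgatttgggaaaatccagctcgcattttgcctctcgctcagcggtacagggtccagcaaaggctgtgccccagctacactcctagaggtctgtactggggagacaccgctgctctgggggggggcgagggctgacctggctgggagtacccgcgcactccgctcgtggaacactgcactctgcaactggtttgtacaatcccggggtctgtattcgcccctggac
Zfp804b: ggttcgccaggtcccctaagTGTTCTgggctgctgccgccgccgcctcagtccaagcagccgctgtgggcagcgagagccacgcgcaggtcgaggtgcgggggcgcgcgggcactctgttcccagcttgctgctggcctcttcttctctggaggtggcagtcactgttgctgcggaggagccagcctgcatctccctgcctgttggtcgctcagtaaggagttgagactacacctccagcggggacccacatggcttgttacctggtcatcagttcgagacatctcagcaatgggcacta
Ago3: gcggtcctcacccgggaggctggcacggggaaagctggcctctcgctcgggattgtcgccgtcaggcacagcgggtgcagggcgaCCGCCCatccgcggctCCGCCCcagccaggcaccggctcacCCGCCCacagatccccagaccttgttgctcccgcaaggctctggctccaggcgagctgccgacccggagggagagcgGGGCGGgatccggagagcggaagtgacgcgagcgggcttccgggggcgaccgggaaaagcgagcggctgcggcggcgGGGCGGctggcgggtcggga

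Scai, a suppressor of transcription by serum response factor and its MRTF cofactors, had the highest ratio. It stood at 308.5 CPM in WT ZT9, against 35.3, 23.1, 59.2 and 55.7 CPM in the 4 cKO libraries in order of time and 49.4, 37.4 and 29.98 CPM in WT at ZT3, ZT15 and ZT21. WT ZT9 was 5.21-fold above the highest of these, and cKO ZT9 was the lowest of the 8. Tet1, a dioxygenase that oxidizes 5-methylcytosine in DNA, had the same order at its ends, with 109.9 CPM in WT ZT9, against 16.7, 10.1, 22.0 and 21.7 CPM in the cKO series and 20.7, 13.7 and 11.2 CPM in WT at ZT3, ZT15 and ZT21. Ago3, an Argonaute protein that carries small RNAs to their targets, stood at 317.6 CPM in WT ZT9, against 37.2, 28.5, 64.9 and 68.2 CPM in cKO and 65.5, 45.8 and 38.6 CPM in the other WT libraries. In these genes the cKO libraries of ZT15 and ZT21 lay above the WT libraries of the same times, and at ZT3 the cKO library lay below.

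Zbtb37, a BTB zinc finger protein, had the widest gap to the middle of the other libraries, 8.75-fold over their median, with 389.3 CPM in WT ZT9 against 31.0 to 85.7 CPM elsewhere. Xkr4, of the XK-related family of membrane proteins, stood at 88.6 CPM in WT ZT9 against 9.16 to 18.2 CPM elsewhere. The zinc finger gene Zfp804b stood at 48.4 CPM against 3.74 to 9.83 CPM. Ptar1, a prenyltransferase subunit, Wnk3, a kinase that controls cation-chloride cotransport, Map3k2, a kinase upstream of ERK5, and Ino80d, a subunit of the INO80 chromatin remodeller, complete the top 10, with ratios to the highest other library between 4.29 and 4.63.

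**Figure D1:**
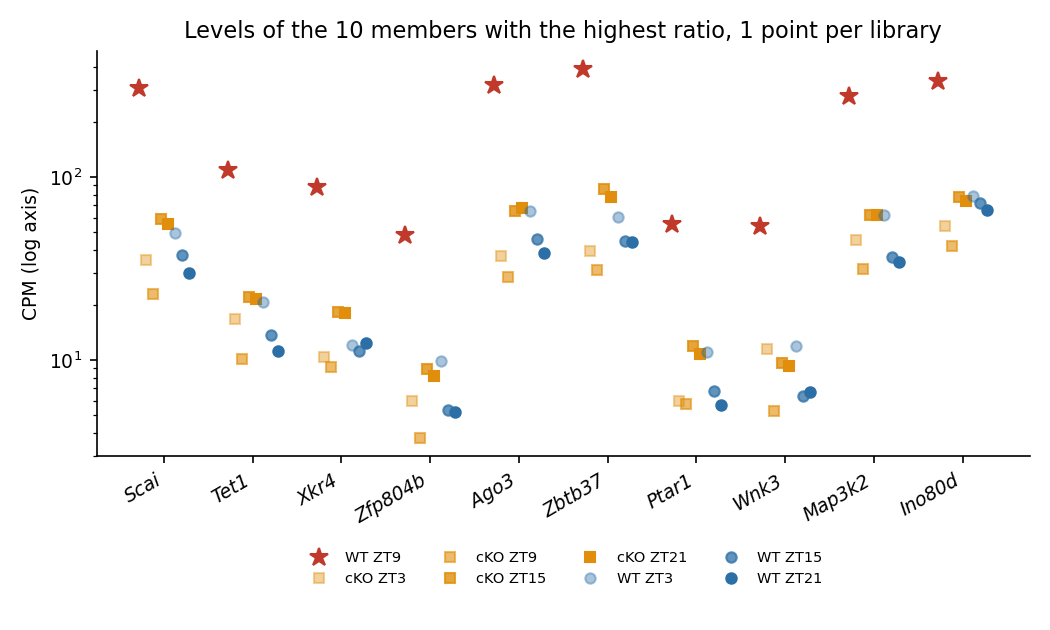
CPM on a log axis (vertical) of the 10 members with the highest ratio (horizontal), 1 point per library: the star is WT ZT9, squares are cKO and circles are WT at the other times, darker with later time. Every star lies above the 7 other points of its gene, as the choice of members requires, and cKO ZT9 is the lowest point for most of the 10 (Scai 308.5 CPM in WT ZT9, 23.1 CPM in cKO ZT9).

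Over all members, WT ZT9 was 2.38-fold to 5.21-fold above the highest other library (median 3.03) and 2.61-fold to 8.75-fold above the median of the other 7 (median 4.16). Summed, the members took 3.29% of the counts in WT ZT9, against 0.687, 0.522, 0.937 and 0.842% in the cKO libraries in order of time and 0.936, 0.784 and 0.732% in WT at ZT3, ZT15 and ZT21. Just inside the limit were Slc9a7, Tcp11l1 and Mycbp2, with log2 ratios of 1.251, 1.250 and 1.248, and just outside were Rc3h2, Rora and Slc8a1 with 1.247, 1.246 and 1.244, so the limit falls in a continuous run of genes. In bulk tissue, fewer cells of a type and less RNA per cell cannot be told apart.

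**Figure D2:**
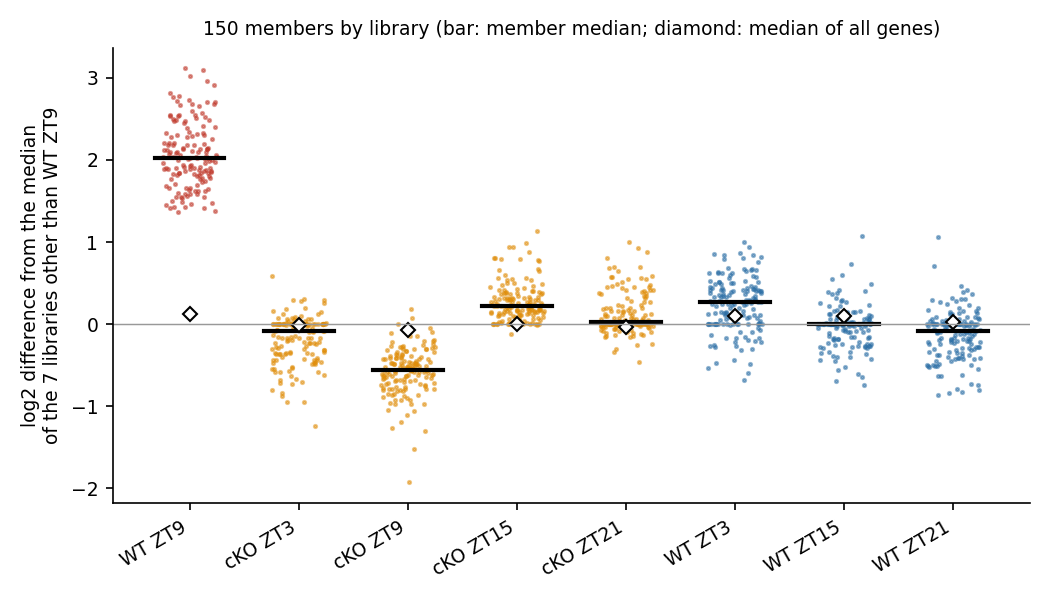
Each point is 1 member in 1 library (horizontal), plotted as its log2 difference from its own median over the 7 libraries other than WT ZT9 (vertical); bars are member medians and diamonds the medians of all 10277 genes. The member median is 2.03 in WT ZT9, and of the other libraries cKO ZT9 has the lowest, -0.56.

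The members were grouped by known role after their values were seen, and 120 of them fell into 15 groups. The 16 regulators of DNA, histones and chromatin summed to 4139 CPM in WT ZT9, against 839, 632, 1212 and 1055 CPM in the cKO libraries in order of time and 1201, 1181 and 1110 CPM in WT at ZT3, ZT15 and ZT21. All 16 were at their lowest in cKO ZT9. Kmt2c and Kmt2a, which methylate lysine 4 of histone H3, stood at 805.3 and 531.4 CPM in WT ZT9, with 100.3 and 54.1 CPM in cKO ZT9. Tet2, the paralog of Tet1, stood at 160.4 CPM in WT ZT9, against 16.1 to 64.5 CPM elsewhere. Kdm7a, a histone demethylase, and Rsf1, a chromatin remodelling subunit, were 3.03-fold and 2.84-fold above their highest other library.

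The 18 zinc finger and other transcription factors summed to 3833 CPM in WT ZT9, against 604 to 1056 CPM in cKO and 849 to 1024 CPM in the other WT libraries. Among them Nfat5, the transcription factor of the osmotic stress response, had 526.1 CPM in WT ZT9 against 74.9 to 136.0 CPM elsewhere. Of 7 members in RNA silencing, decay and processing, all were at their lowest in cKO ZT9. Xrn1, the cytoplasmic 5′ to 3′ exonuclease, had 146.7 CPM in WT ZT9 against 33.5 to 58.0 CPM elsewhere, and Nktr and Ptbp2, which act in splicing or carry splicing-factor domains, had 346.8 and 206.1 CPM in WT ZT9.

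Members with a known place in photoreceptors and their synapses were few. Gucy2f, a retinal guanylate cyclase of photoreceptors, had 566.4 CPM in WT ZT9, against 143.7, 101.8, 150.4 and 161.1 CPM in cKO and 186.4, 113.1 and 118.0 CPM in WT at ZT3, ZT15 and ZT21. Adgrv1, a giant adhesion receptor of the photoreceptor ciliary region, was 2.88-fold above its highest other library, WT ZT3. Pclo, a scaffold of the presynaptic active zone and of ribbon synapses, had 596.9 CPM in WT ZT9 against 83.5 to 159.3 CPM elsewhere. Pcdh15, the Usher cadherin, had 728.9 CPM in WT ZT9, against 79.9, 115.4, 215.3 and 124.4 CPM in cKO and 88.8, 189.1 and 150.8 CPM in the other WT libraries; here cKO ZT9 was not the lowest.

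Among 9 ion channels, channel partners and ligand-gated receptors, the voltage-gated potassium channel subunits Kcnb2, Kcnh7 and Kcnq3 were 3.76-fold, 3.67-fold and 2.94-fold above the highest other library. The glutamate receptor subunits Grin2b and Grik2 and the GABA receptor subunit Gabrb1 were 3.28-fold, 2.71-fold and 3.10-fold above it. Of 7 ubiquitin ligases and deubiquitinases, Usp9x, Birc6 and Usp34 had 675.8, 411.8 and 535.0 CPM in WT ZT9, with 130.3, 35.9 and 98.5 CPM in cKO ZT9. The cytoskeletal and motor group had 11 members, among them Macf1, which links actin and microtubules, with 900.1 CPM in WT ZT9 against 118.6 to 368.7 CPM elsewhere. Dmd, the dystrophin gene, Cep350, a centrosomal protein, and Dync2h1, the motor of retrograde transport in cilia, belong here too, at 3.38-fold, 3.19-fold and 3.01-fold above their highest other library. Fat3, an atypical cadherin, was 3.81-fold above it. Pcdhb16, Pcdhb17, Pcdhb18 and Pcdhb19 are neighbouring paralogs of one protocadherin cluster whose reads the authors' counting could have split between them, so their 4 values are uncertain.

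Over the median of the other 7 libraries, growth factor receptors and kinases had the highest median ratios of the role groups. The 8 kinases and lipid kinases summed to 1594 CPM in WT ZT9, against 209 to 402 CPM in cKO and 274 to 451 CPM in the other WT libraries, and all 8 were at their lowest in cKO ZT9. Taok1, a kinase of the Ste20 family that acts on the MAP kinase and Hippo pathways, had 598.7 CPM in WT ZT9, against 120.4, 75.2, 141.8 and 149.8 CPM in cKO and 145.5, 88.7 and 86.1 CPM in the other WT libraries. Bmpr2, the type II receptor of bone morphogenetic proteins, had 711.6 CPM in WT ZT9, against 123.0, 87.6, 159.7 and 168.9 CPM in cKO and 148.0, 101.2 and 93.5 CPM in the other WT libraries. In both genes the highest other library was cKO ZT21 and the lowest cKO ZT9. Apc, the scaffold that marks beta-catenin for destruction, was 2.83-fold above its highest other library, and Ptpn4, a tyrosine phosphatase, 4.2-fold.

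The 13 genes of cell adhesion and guidance summed to 2549 CPM in WT ZT9, against 434, 456, 776 and 639 CPM in the cKO libraries in order of time and 499.6, 639 and 590 CPM in WT at ZT3, ZT15 and ZT21. Here 8 of 13 were at their lowest in cKO ZT9, and the lowest sum was that of cKO ZT3. The 5 genes of the DNA damage response and replication, among them the checkpoint kinase Atm (73.9 CPM in WT ZT9, against 10.6 to 20.2 CPM elsewhere) and Rev3l, the catalytic subunit of DNA polymerase zeta (371.9 against 45.0 to 105.7 CPM), summed to 834 CPM in WT ZT9, against 142 to 265 CPM elsewhere. Vps13a, Vps13b and Vps13c, bridge-like proteins that carry lipids between membranes, were 2.82-fold, 2.71-fold and 2.50-fold above their highest other library. The 4 solute carriers had the lowest median ratio to the other libraries of the 15 groups, 3.08-fold over their median, and the 4 growth factor, Wnt and BMP genes the highest, 5.53-fold.

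Of 17 pathway lists, 6 held a member, with members making up 1.46% of all genes at this level. The lists were chosen with earlier results of these data known, so these shares are descriptions with no test. The list of giants is also one by size, and most members are long. The list of motor, cytoskeletal and extracellular giants held 11 members of 42 genes, ion channels and synaptic adhesion 7 of 53, chromatin regulators 6 of 74, ubiquitin ligases and deubiquitinases 4 of 36, silencing by small RNAs and deadenylation 2 of 20, and splicing factors and speckle proteins 2 of 50. Genes on these lists that were no member were often highest in WT ZT9 too: 14 of 31 giants, 27 of 46 channels, 23 of 68 chromatin regulators, 18 of 32 ubiquitin genes, 10 of 18 silencing genes and 22 of 48 splicing genes, against 22.3% of all genes. No member came from the lists of the core clock (23 genes), the glucocorticoid response (22), kinases of splicing (15), nuclear long noncoding RNAs (1) or immediate early genes (10). The same held for interferon and antigen presentation (13), heat shock (16), cholesterol synthesis (23), the respiratory chain (30), ribosomal proteins (32) and the mitochondrial genome (13). With members at 1.46% of all genes, a list of 1 to 32 genes without a member is close to the background. For the core clock the lack of a member also rests on the rule, as Clock was left out by name and would have ranked 132 if kept. The core clock list summed to 3112 CPM in WT ZT9, against 1747 to 2426 CPM elsewhere, with the lowest sum in cKO ZT9. Of its 23 genes, 6 were highest in WT ZT9.

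Of 21 lists of cell type markers, 20 held no member. Neb, the giant actin-binding protein of the sarcomere, was on the skeletal muscle list. The lists held 2 to 19 genes at this level and members made up 1.46% of all genes. A short list without a member is therefore close to the background. The summed markers in WT ZT9 lay within the range of the other 7 libraries for 13 lists, above it for 2 and below it for 6. Bipolar cell markers summed to 1605 CPM in WT ZT9 against 1196 to 1566 CPM elsewhere, and horizontal cell markers to 226 CPM against 158 to 200.2 CPM. Lens markers summed to 103300 CPM in WT ZT9 against 114000 to 178500 CPM elsewhere, with the highest value in cKO ZT9, and Müller glia markers to 3841 CPM against 4420 to 6943 CPM. Markers of ganglion cells (585 CPM against 677 to 772), melanocytes (1230.0 against 1334 to 2055), the ciliary body and outflow (1684 against 1752 to 2340) and smooth muscle (435 against 488 to 588) were also below the others. Of the exocrine gland markers, 6 of 18 were at 0 in every library, and no marker of the other 20 lists was. The 20 genes with most counts took 19.2% of the counts in WT ZT9 and 29.2% in cKO ZT9, the lowest and the highest of the 8 libraries. The part of these differences in the members' levels was not tested.

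The rule did not use what the transcripts look like. For each gene, the longest basic protein-coding transcript of GENCODE M21 was taken. All 150 members were protein-coding, as were 99.4% of all genes at this level. Their spliced transcripts had a median length of 10700 nt, against 3440 nt for all genes, and 115 of 150 (76.7%) were among the longest 10% of all genes. The 3′ UTR had a median of 4640 nt against 1320 nt, the coding sequence 3000 nt against 1440 nt, and the gene spanned 120 kb against 27.6 kb. The median GC content of the transcript was 41.9%, against 50.1% for all genes, and 5 members lay above the median of all genes. These are descriptions over the members, with no test.

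Several of the highest members owe their length to the 3′ UTR. Zbtb37 has 16999 nt of 3′ UTR behind 1515 nt of coding sequence, Ago3 has 12742 nt behind 2583 nt, and Scai has 8796 nt behind 1821 nt. Others are long in the coding part: Adgrv1 has 18897 nt of coding sequence and 315 nt of 3′ UTR. Xkr4 is an exception on both scores, with a transcript of 3634 nt and a GC content of 50.1%, and Zfp804b has an annotated 3′ UTR of 20 nt. Among the 150 members, Spearman's rho between the ratio and 3′ UTR length was 0.34 and between the ratio and transcript GC -0.07, against 0.18 and -0.36 over all genes; the values share the same libraries and the ratio chose the members, so these are descriptions. Chromosome 1 held 24 of the 150 members and 5.90% of all genes, and chromosome 11 held 2 members and 8.25% of all genes.

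**Figure D3:**
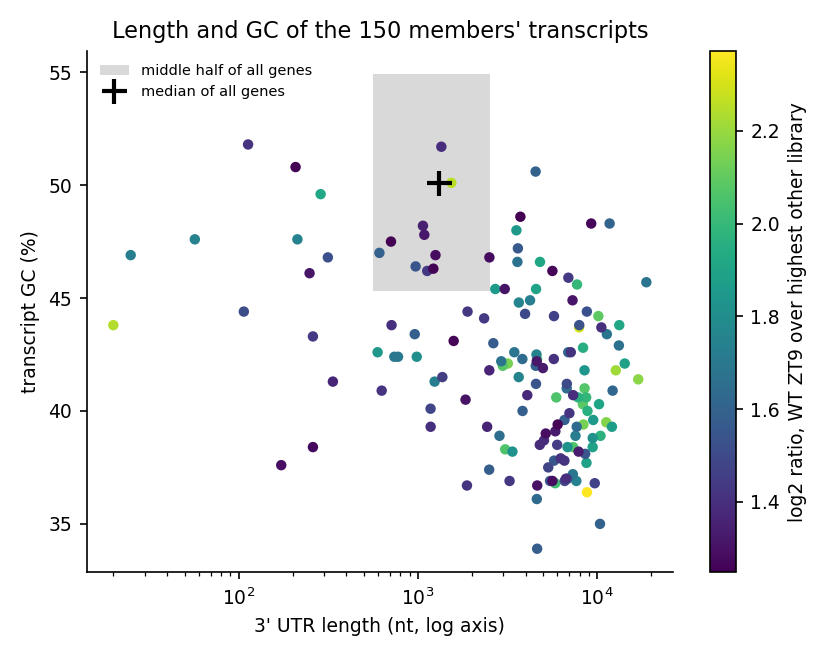
Each point is 1 member, placed by the length of its 3′ UTR in nt on a log axis (horizontal) and the GC content of its transcript in percent (vertical), and coloured by its log2 ratio of WT ZT9 to the highest other library; the grey box spans the lower to the upper quartile of all genes on both axes and the cross is their median. Most points lie right of and below the box, with a member median of 4640 nt and 41.9% GC.

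Genes that share these features without being members moved the same way in part. A gene's deviation is its log2 level in a library minus its median over the other 7 libraries. In the 10% of genes with the longest 3′ UTRs, the median deviation was 0.60 in WT ZT9 and 0.52 without the members, against -0.32 in cKO ZT9. In the 10% of lowest GC it was 0.58 in WT ZT9 and 0.50 without the members, against -0.27 in cKO ZT9. Of 198 genes in both of these bins that were no member, 154 (77.8%) were highest in WT ZT9. A trend on transcript length, 3′ UTR length and GC was fitted to another deviation, the log2 level minus the gene's mean over all 8 libraries. It took 38.3% of the variance between genes in WT ZT9 and 34.9% in cKO ZT9, and 4.34 to 14.4% in the other 6 libraries. Deviations from a shared mean are linked, so a trend in WT ZT9 puts part of its opposite into the other libraries. With this trend removed from every library, the median of the members over the median of the other 7 libraries was 1.08 on the log2 scale in WT ZT9, against 2.03 before. Of the 150 members, 149 then lay above every other library and 34 by 2-fold or more. The members were chosen for lying above every other library and entered the fit of the trend, so these counts are descriptions. Of the 150 genes that the same ranking then takes, 91 are members, led by Xkr4, Zfp804b and Lcor, a corepressor of nuclear receptors.

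**Figure D4:**
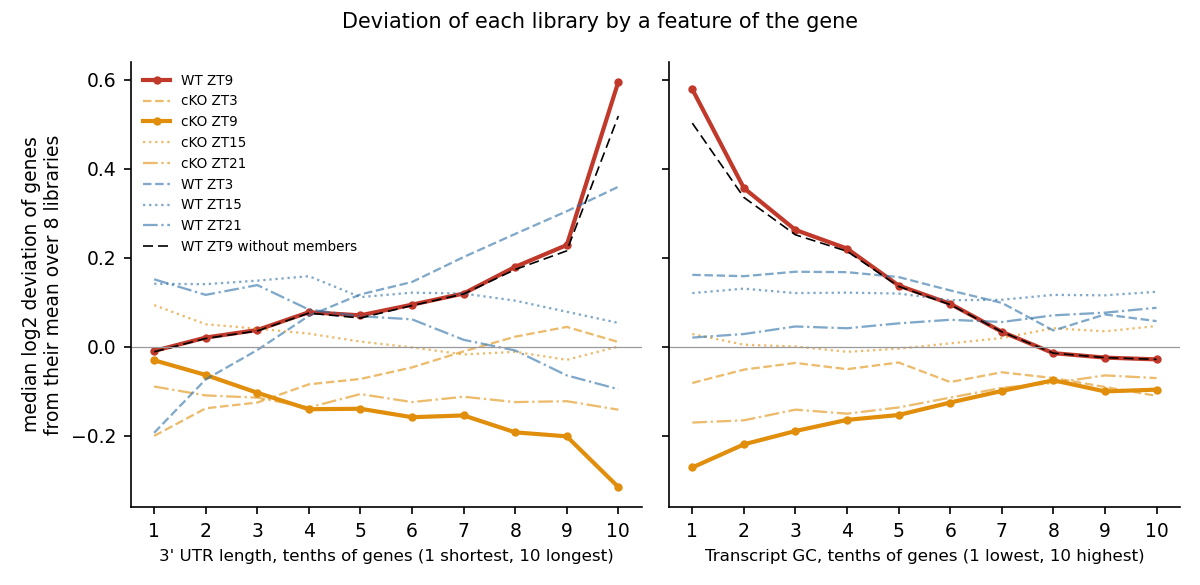
Median log2 deviation of genes from their median over the other 7 libraries (vertical), 1 line per library. The axis label names the mean over the 8 libraries, but the values plotted are differences from that median. Bins hold 10% of genes each, by 3′ UTR length (left, 1 shortest) and by transcript GC (right, 1 lowest). Dashes in black give WT ZT9 without the members. WT ZT9 climbs to 0.60 in the bin of longest 3′ UTRs, and cKO ZT9 lies lowest there, at -0.32.

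Promoters were found for 103 members and 7905 genes at the same level. The median GC content of the promoter was 65.3% for members and 61.7% for all genes, whereas their transcripts were the lower in GC. Both strands were searched. The E-box CACGTG, bound by clock transcription factors, was in 8.74% of the members' promoters and 12.0% of all; the CRE TGACGTCA in 2.91% and 3.78%; the D-box TTATGTAA in none of the 103 and in 0.683% of all. AGAACA was in 20.4% of the members' promoters and 14.4% of all, GGGCGG in 73.8% and 71.4%, CCAAT in 31.1% and 42.9%, and TATAAA in 10.7% and 8.37%. A match is a run of letters and not a shown site.

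The tests that follow leave out WT ZT9. The other libraries entered the choice through the highest of 7, which was WT ZT3 for 71 members and cKO ZT15 for 50, so the tests are not fully independent of it. In cKO, the ZT9 library was set against the mean of the other 3 times in a fit of the 4 cKO libraries over 15964 genes. The ZT9 arm is 1 library, which is assumed to vary like the other 3, so the p-values and SEs rest on the spread among those 3. The log2 fold change was below 0 for 147 of 150 members (98%), against 52.2% of all genes. Its median was -0.59, against -0.02 for all genes. The ZT9 library lay below every other cKO library for 130 members (86.7%), against 33.7% of all genes, and over all 8 libraries cKO ZT9 was the lowest for 117 members (78.0%), against 24.5% of all genes. By edgeR's quasi-likelihood test with Benjamini-Hochberg adjustment no member was called in either direction, and no gene of all tested (0.0%), with 2 residual degrees of freedom. At an unadjusted p below 0.05, 62 members were lower (41.3%, against 1.79% of all genes) and 0 were higher (0.326% of all genes). DESeq2 called 2 members lower at an adjusted p below 0.05, the only 2 of all genes (0.0125%), and none higher (0.0%).

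Those 2, which rest on 1 library at ZT9 and were not called by edgeR, were Smg1, the kinase that starts nonsense-mediated mRNA decay, and Birc6, a giant ubiquitin ligase that restrains cell death. Smg1 stood at 93.5, 38.8, 129.7 and 122.4 CPM in the cKO libraries in order of time, with a log2 fold change at ZT9 of -1.47 ± 0.26 (SE) and an adjusted p of 0.00523 in DESeq2 but 1 in edgeR. Birc6 stood at 89.6, 35.9, 98.6 and 99.8 CPM at these times, at -1.32 ± 0.20 (SE), with 0.00604 in DESeq2 and 1 in edgeR. In both genes the ZT9 library was the lowest of the 4. The lowest estimates were for Zbed6, a transposon-derived transcription factor (-2.13), Dgkh, a diacylglycerol kinase (-1.49), and Smg1. Zbed6 lies within an intron of another gene, Zc3h11a, and its reads may not all be its own. The highest were for Kbtbd3, a kelch-repeat protein (0.28), Atp8a2, a lipid flippase of photoreceptors and neurons (0.18), and Slc9a7, a sodium-proton exchanger of the Golgi (0.07), none of which was called. Without the cKO ZT3 library 27 members were called by edgeR, of 38 genes called in all, and with the length and GC trend removed the median was -0.22.

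Between genotypes, the comparison outside ZT9 used cKO and WT at ZT3, ZT15 and ZT21 with time as a factor, over 15808 genes. No member was called higher or lower in cKO by edgeR, nor was any gene (0.0% in each direction; smallest adjusted p 0.351 among members and 0.119 among all). At an unadjusted p below 0.05, 2 members were lower (1.33%, against 6.19% of all genes) and 21 higher (14.0%, against 6.36%). DESeq2 gave an adjusted p to 12 members and 1097 genes and called none of the 12, with 0.729% of the genes lower and 7.38% higher. The median log2 fold change of the members was 0.18 (-0.01 for all genes). The fold change was positive for 122 members and negative for 28 (18.7%, against 50.9% of all genes). All 3 cKO libraries lay above all 3 WT libraries for 2 members (1.12% of all genes) and below them for 5 (13.2%).

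This median holds opposite directions at different times. The members' median log2 difference, cKO minus WT, was -0.40 at ZT3, where 145 of 150 were lower in cKO. At ZT15 it was 0.24, with 120 higher, and at ZT21 0.21, with 105 higher. The medians of all genes were -0.15, -0.10 and -0.15 at these times. Of all genes, 74.8, 65.7 and 65.9% were lower in cKO at ZT3, ZT15 and ZT21. At ZT9 the difference was -2.62 with all 150 lower, which the choice of members fixes. The median of all genes was -0.23 there, with 70.3% lower in cKO. With the WT library of ZT3 left out, the fit called 84 members (56%), of 3009 genes called in all (18.7% of all genes). With the cKO library of ZT3 left out, it called 78 members (52%), of 2670 genes (16.5%). The medians were 0.38 both times, and these fits rest on 2 times and 1 residual degree of freedom.

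**Figure D5:**
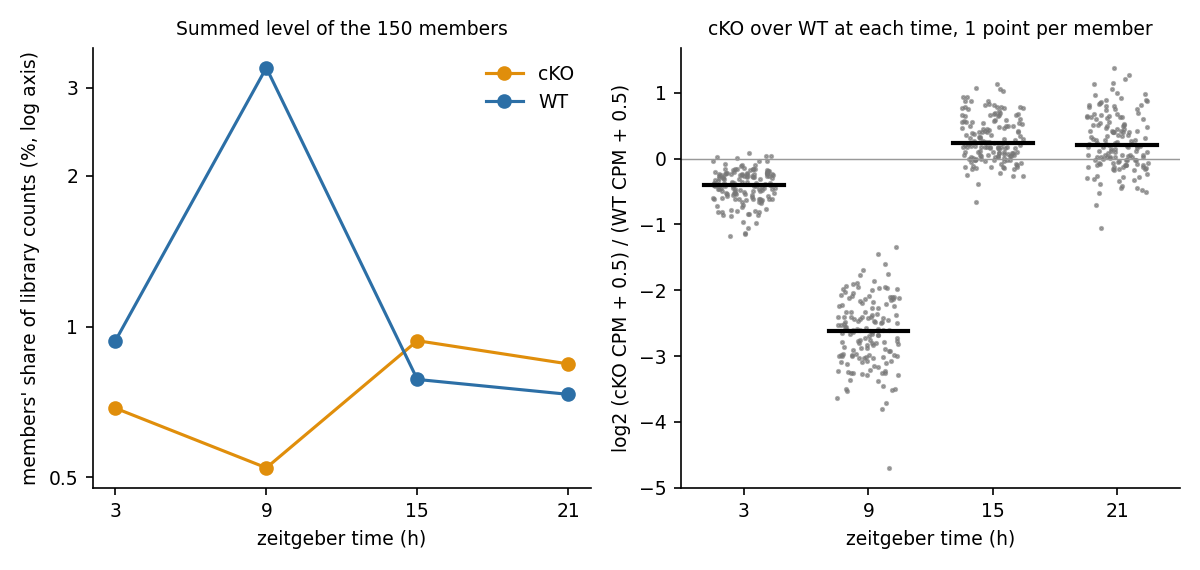
Left, the members' summed share of a library's counts in percent on a log axis, by zeitgeber time in hours, for cKO and WT; right, the log2 ratio of cKO to WT for each member (points) and the median (bar) at each time. WT is at 3.29% and cKO at 0.522% at ZT9, and the median ratio is below 0 at ZT3 (-0.40) and above 0 at ZT15 (0.24) and ZT21 (0.21).

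Among the highest estimates of cKO over WT outside ZT9 were those for Fzd3, a Wnt receptor of axon guidance (0.85 ± 0.30, SE), Fut9, the fucosyltransferase that makes the Lewis X epitope (0.78 ± 0.21), Zfp871 (0.73 ± 0.35) and Lnpep, an insulin-regulated aminopeptidase (0.68 ± 0.38). Fut9 stood at 12.7, 30.1 and 26.0 CPM in cKO at ZT3, ZT15 and ZT21, against 12.6, 13.5 and 16.4 CPM in WT. The cKO excess in Fut9 thus lay in the 2 later times. The lowest were for Zbed6 (-0.87 ± 0.18), Pou2f1, a POU factor of wide expression (-0.36 ± 0.12), Kmt2a (-0.35 ± 0.21), Grik2 (-0.32 ± 0.16) and Bicd1, a dynein adaptor (-0.28 ± 0.13). Zbed6 stood at 1.88, 7.02 and 5.14 CPM in cKO, against 4.79, 11.3 and 11.2 CPM in WT; at each time cKO was lower, while the groups overlapped. None of these genes was called in the fit of all 6 libraries (edgeR adjusted p from 0.351 to 0.489). Leaving out 1 library moved the estimates widely: Kmt2a ran from -0.58 to -0.02, Lnpep from 0.23 to 1.30, Zfp871 from 0.36 to 1.32 and Fzd3 from 0.55 to 1.34. Without either ZT3 library, Fzd3, Fut9, Zfp871, Lnpep, Zbed6 and Bicd1 were called.

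Time among ZT3, ZT15 and ZT21, with genotype in the fit, gave 10 called members by edgeR (6.67%, against 10.5% of all genes), 29 at an unadjusted p below 0.05 (19.3%, against 35.7%) and 15 by DESeq2 (against 16.8%). In these fits each share of called members lay below that of all genes, but the order depended on the ZT3 libraries and on the trend: without cKO ZT3, 51.3% of members and 40.7% of all genes were called, without WT ZT3, 32.7% and 13.9%, and with the length and GC trend removed, 16.7% and 12.8%. Of the 10, 9 were higher at ZT15 and ZT21 than at ZT3, and 1, Zfp518a, was lower. Pcdh15, named after its values were seen, was 1.23 higher on the log2 scale at ZT15 and 0.76 at ZT21 (edgeR adjusted p 0.0373). Cadm2, a synaptic adhesion molecule and also named after its values were seen, stood at 150.4, 269.1 and 251.4 CPM in cKO and at 148.3, 238.5 and 241.4 CPM in WT at ZT3, ZT15 and ZT21 (adjusted p 0.0377). Both genotypes moved alike in Cadm2. Across the members the order of the times was not alike: cKO ZT3 lay below both cKO ZT15 and cKO ZT21 for 119 members (39.7% of all genes), whereas WT ZT3 lay above both WT ZT15 and WT ZT21 for 104 (45.9% of all genes); this contrast was not tested. Leaving out 1 library moved the number of called members between 0, without the cKO or the WT library of ZT15 (247 and 153 genes called in all), and 77, without cKO ZT3 (6595 genes).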

How the data were processed

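The authors deposited raw counts per gene symbol for 8 libraries of pooled whole-eye RNA, with no normalization; the aligner, counting program, genome build, annotation and strand were not given in the sources used here, so reads of a gene and of an overlapping or antisense gene cannot be told apart. In 27 rows a spreadsheet had turned the symbol into a date, and these (0.123 to 0.145% of a library's counts) were left out. The members and gene lists were chosen with earlier results of these data known. Levels are CPM over column totals.

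Tests were run in R 4.3.3 with edgeR 4.0.16 (TMM, filterByExpr, quasi-likelihood F test, Benjamini-Hochberg adjustment over all genes tested, threshold 0.05), and with DESeq2 1.42.0 as the alternative, and were checked on simulated counts. As there is 1 pool of 3 mice for each genotype and time, p-values measure the spread between pools around each model, not between mice; WT and cKO pools are linked only by time. Named are the 10 members with the highest ratio, 3 genes on each side of the limit, members on the lists (at most 6 per list), the extremes of the genotype and cKO comparisons, and Nr3c1; others are marked or serve as examples of a role group. Some genes that this rule names are not reported here. Transcript features came from GENCODE M21 (GRCm38) by symbol for 10010 genes, and promoters from RefSeq (GRCm38.p6), so their lengths may differ from those the authors counted on. Figures and the ranking used Python 3.11.15.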

Additional observations from a re-analysis of the deposited data

Results flagged for a closer look

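Over the 4 times of a genotype, a library was picked out where its gap to the nearest other, divided by the range, exceeded Dixon's critical value for 4 values; chance picks out about 1 in 20 groups. The summed CPM of the members picked out WT ZT9 (0.921), and so did 117 single members, against 2.85% of all genes; the choice of members favours this. In cKO, ZT9 lay apart for 8 members (5.33%, against 0.749% of all genes) and ZT3 for 1 (0.667%, against 5.09%).

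Opposite movement in the genotypes was seen for 130 members, which were highest at ZT9 in WT and lowest at ZT9 in cKO, against 11.3% of all genes; the WT side of this is fixed by the choice of members. For 73 members ZT3 lay above ZT15 and ZT21 in WT and below both in cKO, against 4.71% of all genes. These differences between genotypes were not tested.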

How the results depend on the processing

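Under 6 other ways of ranking (TMM-adjusted sizes, another pseudocount, other minimum levels, the mean of the other 7 libraries, WT libraries alone), 117 to 141 of the 150 genes were taken again, and leaving out 1 of the other 7 libraries kept 119 (without WT ZT3) to 149. Each minimum level was set on a mean that includes WT ZT9. With the trend on transcript length, 3′ UTR length and GC removed, an alternative added after the data were seen, 91 were kept. The number of members called between cKO and WT outside ZT9 was 0 in the main fit and 0 to 84 when 1 library was left out. The higher counts came without a ZT3 library, and the 84 were 56% of members, against 18.7% of all genes. The member median ran from 0.08 to 0.38 with 1 library left out. Without the time block (no replicate block, genotype alone) it was 0 called and a median of 0.16. With the length and GC trend removed, 0 members were called and the median was 0.34, against 0.18 in the main fit. For time among ZT3, ZT15 and ZT21, 10 members of 1662 called genes were called, 3 of 708 without genotype in the fit, 25 of 2022 with the trend removed, and 0 (of 153 and 247) to 77 (of 6595) with 1 library left out. For ZT9 in cKO, DESeq2 called 2 where edgeR called 0, 0 to 27 (of 38 genes) were called and the median ran from -0.70 to -0.50 with 1 library left out, and it was -0.22 with the trend removed. The cause was not tested. In fits without 1 library and in the cKO comparison of ZT9, the lone sample of an arm is assumed to vary like the others. Of 152 alternative values for 16 estimates in 15 genes, 124 kept their side of the threshold, 18 passed it only in the alternative and 10 had no adjusted p (DESeq2); no sign turned. With 1 library per genotype and time, pooling hides the spread between mice.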
